A study of Mus musculus with 7 samples.

Results

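Myelin is the stack of glial membrane that insulates axons, made by Schwann cells in nerves and by oligodendrocytes in the brain. Schwann cells and melanocytes both arise from the neural crest and share SOX10, the transcription factor that drives myelin genes in the former and pigment genes in the latter. The genes described here are 8 of this kind: the myelin genes Pmp2, Pmp22, Mbp and Cnp, and the glial or Schwann-lineage genes Apod, Fabp7, Bcan and Scrg1. They were taken by gene symbol from the array annotation, and each had 1 probe set, so all 8 members were measured among 19938 genes. The members were chosen by their measured values in these arrays, above all the difference between PECAM1+ and PECAM1- cells and the spread among PECAM1+ clones, so those values are given as a description with no test.

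Each of the 7 samples was hybridised to its own single-colour array (Affymetrix Mouse Gene 1.0 ST). B16F10 is a pigmented mouse melanoma line, and PECAM1, also named CD31, is a cell adhesion protein best known from endothelium. The PECAM1- samples were the uncloned parental cells and clone A1 (n = 2), the PECAM1+ samples were clones A2, A3, A4 and A5 (n = 4), and mouse dermal endothelial cells (MDEC, also labelled PECAM positive) gave 1 array. All B16F10 cells were grown in the same medium and MDEC in an endothelial medium, no treatment was applied, and each clone was 1 array. The labels do not say whether cultures were separate or whether the clones arose separately, so the spread within a group may be technical.

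The labelled identities were checked on marker genes. Pecam1 was at 5.27 and 5.43 in the PECAM1- samples and between 11.00 and 11.07 in the 4 PECAM1+ clones. The summed log2 level of 9 melanocyte genes was between 14.8 and 15.3 in B16F10 and 8.79 in MDEC, and that of 10 endothelial genes between 8.75 and 8.90 in B16F10 and 14.2 in MDEC, although Vwf was no higher in MDEC. Clone A1 stood apart from the other B16F10 arrays: the summed level of 7 cell cycle genes was 10.1 there and between 13.6 and 13.8 in the other 5. Where leaving out clone A1 turns a named group difference or moves it by over 1.5 times, the difference from parental cells alone is also given. The files give no detection calls, so a low value cannot be called absence.

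Among the members with a promoter, the starts of those most separated between groups or clones are shown first. Each is the 250 bases before the gene start in RefSeq (assembly GRCm38.p6), on the gene's own strand, 5′ to 3′. A promoter was found for 5 of the 8 members, Pmp22, Cnp, Apod, Fabp7 and Bcan. None was found for Pmp2, Mbp or Scrg1, so these cannot be shown. Pmp22 and Apod are shown because they were higher in all PECAM1+ clones, and Fabp7 and Bcan because both were highest in clone A4. Capitals mark any match on either strand to ACAAAG (the core bound by SOX factors), CATGTG (the M-box of MITF), CACGTG (the E-box) or GCCNNNGGC (AP-2).
Pmp22, first of 4 starts, chr11:63128732-63128981, plus strand: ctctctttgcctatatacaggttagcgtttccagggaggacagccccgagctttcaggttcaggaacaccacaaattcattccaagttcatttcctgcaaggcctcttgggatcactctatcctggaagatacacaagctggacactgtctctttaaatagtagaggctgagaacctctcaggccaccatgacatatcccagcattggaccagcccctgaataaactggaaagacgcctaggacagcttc
Apod, chr16:31314809-31315058, minus strand: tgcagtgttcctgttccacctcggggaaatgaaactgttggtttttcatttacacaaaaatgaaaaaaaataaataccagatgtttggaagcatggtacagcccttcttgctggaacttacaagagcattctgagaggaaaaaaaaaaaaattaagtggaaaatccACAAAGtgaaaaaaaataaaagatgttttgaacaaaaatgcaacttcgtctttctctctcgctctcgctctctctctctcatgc
Fabp7, chr10:57784673-57784922, plus strand: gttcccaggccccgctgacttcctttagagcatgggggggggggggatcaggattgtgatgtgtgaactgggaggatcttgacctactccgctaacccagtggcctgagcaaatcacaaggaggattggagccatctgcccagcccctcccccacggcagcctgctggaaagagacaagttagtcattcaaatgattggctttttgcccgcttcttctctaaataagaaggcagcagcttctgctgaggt
Bcan, chr3:88000357-88000606, minus strand: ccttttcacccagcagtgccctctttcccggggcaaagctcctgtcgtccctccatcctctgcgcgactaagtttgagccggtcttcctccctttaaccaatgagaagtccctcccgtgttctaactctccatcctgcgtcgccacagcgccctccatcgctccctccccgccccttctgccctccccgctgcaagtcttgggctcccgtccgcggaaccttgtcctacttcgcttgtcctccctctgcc

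Of these 4 windows, the one before Apod held a match, an ACAAAG that begins 84 bases before the start. ACAAAG occurred in 16.5% of the 32851 promoter windows in the table, CATGTG in 12.3%, CACGTG in 6.02% and GCCNNNGGC in 13.7%. The window before Cnp also held 1 ACAAAG. The third and the fourth Pmp22 starts had 1 and 2 GCCNNNGGC matches. A match is a run of letters and not a binding site.

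Pmp2, Pmp22, Apod and Bcan were higher in every PECAM1+ clone than in both PECAM1- samples, while Mbp, Cnp, Fabp7 and Scrg1 were not. Among all genes, 0.502% had PECAM1+ clones all above both PECAM1- samples with means at least 2-fold apart, and 7.73% had such a separation at any size. The members were picked with this contrast in view, so nothing is read from the 4 of 8. In bulk RNA, a change in the share of cells that express a gene and a change in RNA per cell cannot be told apart.

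Pmp2 encodes the fatty acid-binding protein of peripheral myelin, a small protein that carries lipids at the membrane. Parental cells had a log2 value of 5.81 and clone A1 of 4.29, against 7.91 in A2, 10.27 in A3, 9.48 in A4 and 9.52 in A5. The groups were 2.10 log2 units apart at their nearest arrays. The means were 9.30 ± 0.99 (SD, n = 4) and 5.05 ± 1.07 (SD, n = 2), a difference of 4.24 ± 0.75 (SE) log2 units, or 18.9-fold. Only Pecam1 had a larger positive difference among the genes tested. Against parental cells alone the difference was 3.49, and it was larger against clone A1. Clone A2 was the lowest PECAM1+ clone, 1.85 log2 units below the mean of the other 3, while A4 and A5 were 0.04 apart.

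Pmp22 encodes a tetraspan membrane protein of compact myelin whose gene copy number underlies inherited neuropathy. It was at 9.46 in parental cells, 8.93 in A1, 11.44 in A2, 12.16 in A3, 10.94 in A4 and 11.81 in A5. Both groups were again separate, by 1.48 log2 units at the nearest arrays. The means of 11.59 ± 0.53 (SD, n = 4) and 9.19 ± 0.38 (SD, n = 2) differed by 2.39 ± 0.37 (SE), or 5.25-fold. MDEC held 11.38, inside the range of the PECAM1+ clones.

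Apod encodes apolipoprotein D, a secreted lipocalin that Schwann cells of injured nerve release. Parental cells were at 5.93 and A1 at 6.26, and clones A2 to A5 at 7.84, 8.93, 8.65 and 7.97. Every PECAM1+ clone was at least 1.58 log2 units above both PECAM1- samples. The difference of the means was 2.25 ± 0.35 (SE), or 4.76-fold. It was 2.41 against parental cells alone and 2.09 against A1 alone.

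Bcan encodes brevican, a chondroitin sulfate proteoglycan of the brain matrix. It was at 7.66 in parental cells and 7.16 in A1, and at 8.17, 8.68, 10.23 and 8.35 in A2 to A5. The separation at the nearest arrays was 0.50 log2 units, smaller than the SD of 0.94 among the PECAM1+ clones. The difference of the means was 1.45 ± 0.62 (SE), and it was 0.99 when clone A4 was left out.

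Fabp7 encodes the brain fatty acid-binding protein of radial glia and Schwann cell precursors. It was at 9.63 in parental cells, 10.37 in A1, 10.10 in A2, 9.63 in A3, 11.53 in A4 and 9.98 in A5. The groups overlapped, and clone A1 was above 3 of the 4 PECAM1+ clones. The difference of 0.31 ± 0.57 (SE) turned to -0.10 without clone A4 and was 0.68 against parental cells alone.

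Scrg1 encodes a small secreted protein first found in scrapie-infected brain. It was at 5.22 in parental cells and 6.20 in A1, and at 6.17, 5.48, 8.89 and 5.75 in A2 to A5. Here too the groups overlapped, and clone A4 alone lay above A1. The difference of 0.86 ± 1.04 (SE) was 0.09 without A4 and 1.36 against parental cells alone.

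Mbp encodes myelin basic protein, which holds the cytoplasmic faces of myelin together. It was at 11.21 in parental cells and 11.26, 11.38, 11.06 and 11.36 in A2 to A5, with A1 below the rest at 10.54. The difference of the groups was 0.39 ± 0.20 (SE), and it was 0.05 against parental cells alone and 0.72 against A1 alone. Cnp encodes a cyclic nucleotide phosphodiesterase of myelinating cells. Its 6 B16F10 values lay within 0.48 log2 units, highest in A3 and lowest in A5, with a group difference of -0.05 ± 0.17 (SE) that was 0.07 against parental cells alone.

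**Figure D1:**
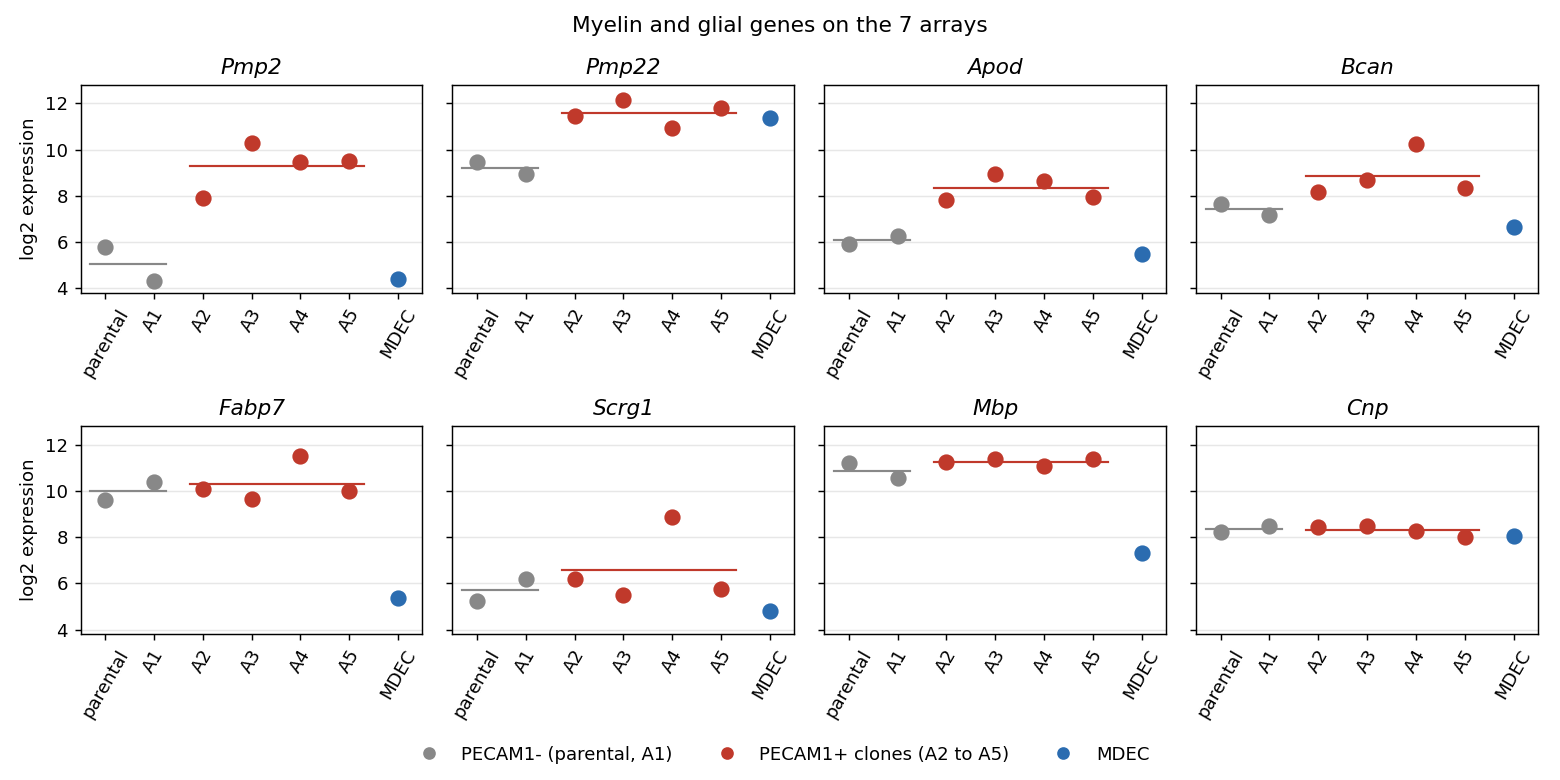
Log2 expression (vertical axis) of the 8 genes on each of the 7 arrays (horizontal axis), 1 point per array, with lines at the means of the PECAM1- samples (grey) and the PECAM1+ clones (red) and MDEC in blue. Pmp2, Pmp22, Apod and Bcan are higher in all 4 PECAM1+ clones, and Fabp7 and Scrg1 are raised in A4. Cnp stays nearly level in B16F10, and so does Mbp apart from a lower A1.

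The PECAM1+ clones were not alike in these genes. The range over A2 to A5 was at least 2-fold for 6 of the 8 members and for 1.27% of all genes, and the members were in part picked for it. Scrg1 had the widest range of all genes tested, 3.41 log2 units or 10.7-fold. Pmp2 ranked 16 with 2.36, Bcan 24 with 2.06, Fabp7 34 with 1.90, Pmp22 136 with 1.23 and Apod 194 with 1.09. Mbp (0.32, rank 5554) and Cnp (0.48, rank 2161) stayed below 2-fold, yet were wider than the median of all genes (0.22). Each clone is 1 array, so these ranges have no replicate check.

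**Figure D2:**
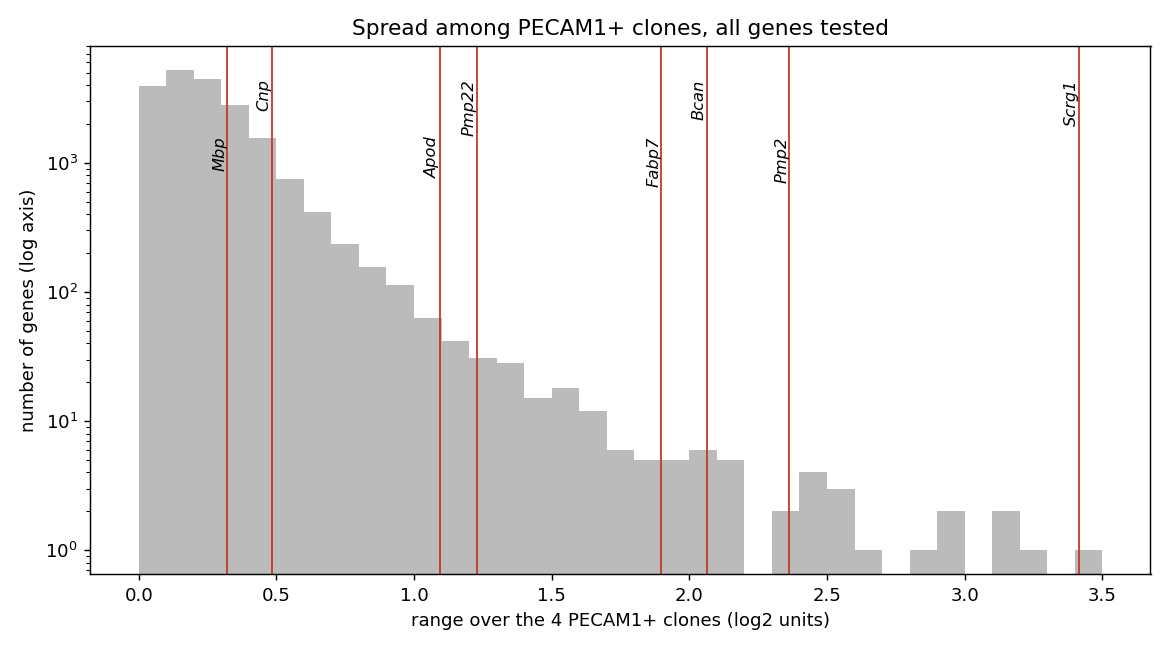
Range over the 4 PECAM1+ clones in log2 units (horizontal axis) and number of genes on a log axis (vertical axis) for all 19938 genes, with red lines at the 8 members. Scrg1 is the last gene on the right, and Mbp and Cnp are the members furthest left, above the median of all genes (0.22).

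The members fell into those highest in clone A3 and those highest in clone A4. Among the PECAM1+ clones, Pmp2, Pmp22, Apod, Mbp and Cnp were highest in A3. Pmp2 was 2.47-fold above the mean of the other 3 PECAM1+ clones there, Apod 1.72-fold and Pmp22 1.71-fold. By the rule of at least 2-fold, Pmp2 was the 1 member set apart in A3 (background 0.221%), and A2 was the low clone for Pmp2 (background 0.100%).

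Fabp7, Bcan and Scrg1 were highest in A4, by 1.63, 1.83 and 3.09 log2 units over the other 3 PECAM1+ clones, or 3.09-fold, 3.55-fold and 8.53-fold. All 3 passed the 2-fold rule there (background 0.196%). Scrg1 was lowest in A3, 1.46 below the other 3 (background 0.0953%). Pmp22 went the other way and was lowest in A4, 0.87 below the other 3. Fabp7 and Scrg1 gave the same order of all 6 B16F10 arrays: parental, A3, A5, A2, A1 and A4 from low to high, although parental cells and A3 were both at 9.63 in Fabp7.

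**Figure D3:**
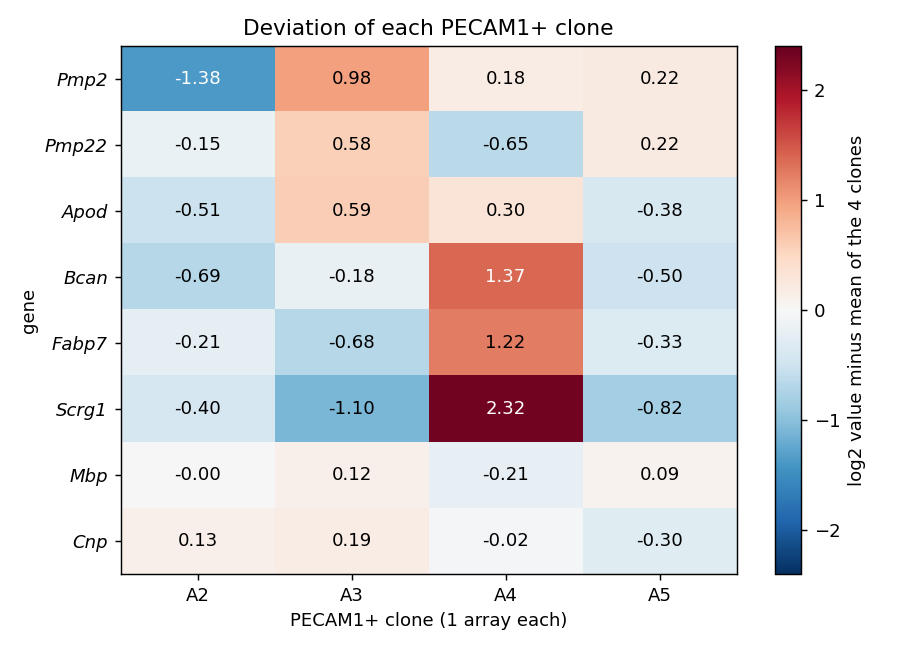
Each cell gives the log2 value of 1 gene (rows) in 1 PECAM1+ clone (columns) minus the mean of the 4 clones, red above and blue below. The A4 column is high for Bcan, Fabp7 and Scrg1 and low for Pmp22, and the A3 column is high for Pmp2, Pmp22 and Apod.

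Among the PECAM1+ clones, all 9 melanocyte markers were also highest in clone A4, while the Schwann markers did not all follow. The calcium-binding glial marker S100b was at 9.67, 9.29, 10.46 and 9.50 in A2 to A5, 8.24 in parental cells and 10.03 in A1. Cdh19, an adhesion molecule of Schwann cell precursors, was at 9.28 in A4 and between 8.65 and 8.89 in the other PECAM1+ clones, below the 9.77 of A1. The Schwann cell receptor gene Ngfr went otherwise and was lower in A4 (7.19) than in the other PECAM1+ clones (7.50 to 7.99). Erbb3 was at 9.38 in A4, below A2 (9.69) and above A3 (9.07) and A5 (9.26). Sox10, Dhh and Gfap were highest in A4 among these clones by small gaps, at 11.00, 6.27 and 5.94. The tyrosinase gene Tyr was at 10.84 in A4 against 9.63 to 10.38, and the melanosome receptor gene Gpr143 at 10.49 against 9.28 to 9.72. The summed level of the 9 melanocyte genes was 15.3 in A4 and between 14.8 and 15.1 in A2, A3 and A5, and that of 8 measured Schwann cell markers 12.3 and between 11.9 and 12.1, with A1 at 12.4. Their part in the values of Fabp7, Bcan and Scrg1 was not tested.

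Macrophage markers moved with Pmp2 in 1 gene. Lyz2, the lysozyme gene, was at 5.43 and 4.78 in the PECAM1- samples and 6.34, 8.03, 7.87 and 7.09 in A2 to A5. The other 5 macrophage markers did not follow: Ptprc, the pan-leukocyte marker, lay between 4.96 and 5.15 in all 6 B16F10 arrays, and the summed level of the 6 was 8.39 and 10.2 in PECAM1- samples and between 8.85 and 9.36 in PECAM1+ clones. Summed fibroblast markers ran from 9.05 to 9.63 in PECAM1+ clones and from 8.92 to 9.23 in PECAM1- samples, oligodendrocyte markers from 8.58 to 8.62 and from 8.62 to 8.68, and neuron markers from 9.29 to 9.75 and from 9.60 to 9.62. The summed level of 7 astrocyte markers was 9.91 to 10.3 in the PECAM1+ clones and 10.3 and 11.6 in parental cells and A1, although 3 of the 7 had a higher mean in the PECAM1+ clones, and the marker with the large difference was Aldoc (-2.12).

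Dermal endothelial cells served as the endothelial reference of the study. MDEC lay outside the range of the 6 B16F10 arrays for 5 of 8 members, where 52.9% of all genes did, in either direction. For all 5, Mbp, Apod, Fabp7, Bcan and Scrg1, MDEC was below. The share of all genes on that side alone was not counted. By a rule of size, at least 4-fold away from B16F10 (the average of both group means) and beyond its range, 2 members were lower, where 2.01% of all genes were lower and 2.72% higher. Fabp7 was at 5.36 in MDEC, 27.8-fold below B16F10, and Mbp at 7.30, 13.7-fold below. Apod was 3.38-fold, Bcan 2.78-fold and Scrg1 2.56-fold below B16F10, at 5.46, 6.66 and 4.78.

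The other 3 members lay inside the B16F10 range in MDEC. Pmp2 was at 4.39, between A1 and parental cells. Pmp22 was at 11.38, 0.20 below the mean of the PECAM1+ clones, and Cnp at 8.04. Thus Pmp22 was the 1 member among those higher in PECAM1+ clones that MDEC held at the clones' level. With 1 MDEC array these are values without a test.

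Other genes of the glial programme were read from the same fit, from 6 lists written from textbook roles with the members left out. The lists held 129 measured genes. In limma's moderated test 0 of the 129 passed an adjusted p of 0.05 over all genes in either direction (background 0.0100%, 2 genes), and 16 had an unadjusted p under 0.05 (12.4%, background 9.18%). The mean of the PECAM1+ clones was the higher, by any amount, for 81 of them (62.8%, where 50.4% of all genes were). Their median difference was 0.03, that of all genes 0.00 and that of the 8 members 1.15. From parental cells alone these medians were 0.004, -0.0007 and 1.27. Groups were separate for 15 of the 129 as higher (11.6%, background 7.73%) and for 4 as lower (3.1%, background 8.68%). Against parental cells alone 0 of the 129 passed (background 0.0100%), and against clone A1 alone 18 passed as higher (background 9.33%) and 10 as lower (background 11.2%), where the lone sample was assumed to vary like the others.

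**Figure D4:**
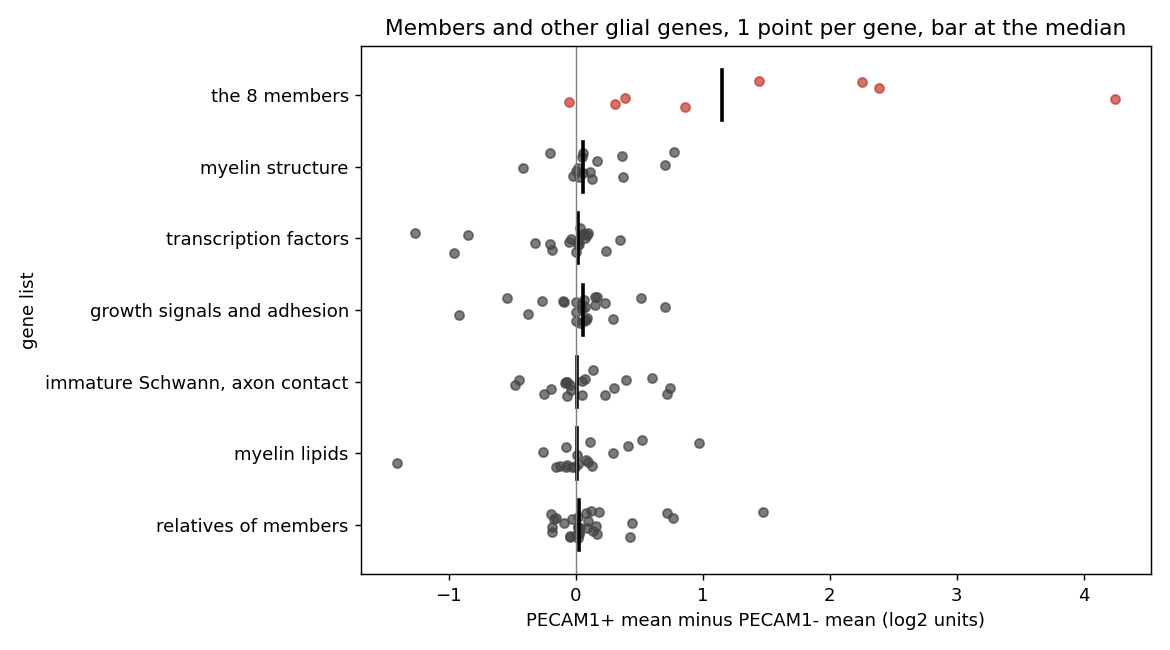
Difference between the PECAM1+ and PECAM1- means in log2 units (horizontal axis) for the 8 members (red) and the measured genes of 6 glial lists (grey), 1 point per gene, with a bar at each list's median. The medians of the 6 lists lie between 0.01 and 0.06, and the largest member is Pmp2 at 4.24.

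Of 16 other myelin structure genes, 12 were higher by any amount in the PECAM1+ clones (75.0%, background 50.4%). The median difference of the 16 was 0.06, and 0.03 from parental cells alone. In limma 0 passed and 2 had an unadjusted p under 0.05 (12.5%, background 9.18%). Mal, a proteolipid of lipid rafts in myelin, was at 8.02 in parental cells and 7.03 in A1 and at 7.87, 8.74, 7.98 and 8.59 in A2 to A5, so the groups overlapped (difference 0.77 ± 0.38, SE, limma adjusted p = 0.537, and 0.27 against parental cells alone). Tspan2, a tetraspanin of oligodendrocytes, differed by 0.70 ± 0.28 (limma adjusted p = 0.537), or 0.39 against parental cells alone, and was highest in A3 at 6.83, as Mal, Pmp2 and Pmp22 were. Drp2, a partner of periaxin in Schwann cells, differed by -0.41 ± 0.20, which lay mostly in A1: the difference from parental cells alone was -0.08. Gjc3, a glial connexin, was between 10.51 and 11.28 in B16F10 and at 5.39 in MDEC. The oligodendrocyte genes Mog, Mag and Mobp varied little over all 7 arrays, from 5.27 to 5.76, from 5.68 to 5.74 and from 5.98 to 6.04.

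Among 20 transcription factors of Schwann cells and the neural crest, the median difference was 0.02, and -0.0025 from parental cells alone. In limma 0 passed and 1 had an unadjusted p under 0.05 (5.0%, background 9.18%). Sox10 was at 11.03 in parental cells, 10.82 in A1, 10.99 in A2, 10.77 in A3, 11.00 in A4 and 10.72 in A5, a difference of -0.05 ± 0.12 (SE) that was -0.16 against parental cells alone, and at 7.33 in MDEC. Mitf, the melanocyte regulator, and Tfap2a, which encodes AP-2 alpha, differed by 0.10 ± 0.20 and 0.03 ± 0.09 (limma adjusted p = 0.853 and 0.922), and both signs turned against parental cells alone (-0.19 and -0.06). Egr2, which switches on the myelin programme with SOX10, was between 5.73 and 5.76 in parental cells and the PECAM1+ clones and at 7.44 in A1. Jun, which marks repair Schwann cells, and Egr1 were likewise high in A1, at 11.86 and 8.76, and at 9.55 and 6.37 in parental cells. From A1 alone the PECAM1+ mean differed by -2.42 for Jun, -2.16 for Egr1 and -1.69 for Egr2. From parental cells alone these were -0.11, 0.24 and -0.01. Other factors went the other way against A1, such as Zeb2 (0.47) and Pax3 (0.35), and the median of the 20 was 0.02. Tead1 differed by 0.35 ± 0.21 between the groups but by 0.02 from parental cells alone.

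Of 24 neuregulin, neurotrophin and adhesion genes, 17 were higher by any amount (70.8%, background 50.4%). The median difference of the 24 was 0.06, and -0.001 from parental cells alone. In limma 0 passed and 3 had an unadjusted p under 0.05 (12.5%, background 9.18%). Adam22, a receptor of LGI proteins, was at 5.48 in parental cells, at 5.97 in A1 and no higher than 4.88 in any PECAM1+ clone, a difference of -0.92 ± 0.14 (SE) that did not pass over all genes (limma adjusted p = 0.309). The laminin receptor genes Itga6 and Dag1 differed by 0.70 ± 0.28 and 0.51 ± 0.22, and by 0.20 and 0.13 from parental cells alone. The neuregulin receptor gene Erbb3 was at 9.48 in parental cells, at 10.30 in A1 and from 9.07 to 9.69 over the PECAM1+ clones, a difference of -0.54 ± 0.28 (-0.13 against parental cells alone), and at 5.67 in MDEC. Its ligand gene Nrg1 was at 7.95 in MDEC and between 5.11 and 5.31 in B16F10. Ngfr, the neurotrophin receptor of immature Schwann cells, was between 7.19 and 7.99 in the PECAM1+ clones and at 7.61 and 7.09 in the PECAM1- samples, and Bace1, a protease that cleaves neuregulin, was 2.05 lower in MDEC than in B16F10.

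Of 20 genes of immature Schwann cells and axon contact, 10 were higher by any amount (background 50.4%). In limma 0 passed and 2 of the 20 had an unadjusted p under 0.05 (background 9.18%). Matn2, a matrilin of the nerve matrix, was at 6.33 and 6.14 in the PECAM1- samples and 6.71, 7.03, 7.40 and 6.79 in A2 to A5, so the groups were separate and A4 was highest (difference 0.75 ± 0.21, SE, limma adjusted p = 0.436). Gas7 differed by 0.72 ± 0.47, S100b by 0.60 ± 0.57 and the axon adhesion gene L1cam by -0.48 ± 0.28. Clone A1 set the Gas7 and L1cam differences: from parental cells alone Gas7 differed by -0.14, with the sign turned, and L1cam by -0.05. For S100b parental cells were the low array: the difference was 1.49 from parental cells alone and -0.29 from A1 alone. Among the PECAM1+ clones the N-cadherin gene Cdh2 ranged over 1.26 log2 units and the nestin gene Nes over 0.99, both highest in A3. Against B16F10, MDEC had Cdh19 lower by 5.19 and S100b by 3.98, and Gap43, a growth cone protein, higher by 4.33.

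Of 19 myelin lipid genes, 10 were higher by any amount (52.6%, background 50.4%). In limma 0 passed and 3 had an unadjusted p under 0.05 (15.8%, background 9.18%). Aspa, which supplies acetate for myelin lipids, was at 6.70 in A1 and between 3.79 and 4.09 in the other 5 B16F10 arrays. The fatty acid elongase gene Elovl6 differed by 0.97 ± 0.45 (SE), the ceramide gene Degs1 by 0.53 ± 0.10 and the squalene epoxidase gene Sqle by 0.41 ± 0.10 (limma adjusted p = 0.537, 0.351 and 0.428). The groups were separate for Degs1 and Sqle, while parental cells and A3 were both at 10.00 for Elovl6, whose difference from parental cells alone was 0.14. Ugt8a, the enzyme of myelin galactolipids, ranged over 1.01 log2 units in the PECAM1+ clones, with A2 highest at 7.76, and was 1.51 lower in MDEC than in B16F10. Sptlc1 and Arsa ranged over 0.50 and 0.38.

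Of 30 relatives of the members, 20 were higher by any amount (66.7%, background 50.4%). The median difference of the 30 was 0.03, and 0.004 from parental cells alone. In limma 0 passed and 5 had an unadjusted p under 0.05 (16.7%, background 9.18%). Fabp5, the epidermal fatty acid-binding protein and a relative of Pmp2 and Fabp7, was at 11.08 in parental cells, at 8.75 in A1 and from 11.27 to 11.49 over the PECAM1+ clones, so its difference of 1.47 ± 0.61 (SE, limma adjusted p = 0.537) lay mostly in A1 and was 0.31 against parental cells alone. Fabp4, the adipocyte and endothelial member, was at 10.22 in MDEC and between 3.99 and 4.26 in B16F10. Of the PMP22 family, Emp1 differed by 0.72 ± 0.49 and Emp3 by 0.44 ± 0.11. Against parental cells alone Emp1 turned to -0.06 and Emp3 was 0.26. MDEC held Emp1 higher by 3.48 and Emp3 lower by 5.29 than B16F10. The lipocalin gene Lcn2 was at 7.89 in A3 and between 5.42 and 5.85 in the other PECAM1+ clones, while Ptgds, another lipocalin, was among these clones lowest in A3 at 11.11 and highest in A4 at 12.23, with A1 at 12.42. Crabp2, a retinoic acid-binding relative of Fabp7, was highest in A4 at 9.87. Parental cells at 7.62 lay below A2, the lowest PECAM1+ clone at 8.20. A1 at 9.54 lay above A2, A3 and A5, so the groups overlapped. The matrix gene Tnc was 6.37 higher in MDEC.

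Genes next to the members on the chromosome were read from the RefSeq gene order, 3 measured genes on each side. Of the 6 around Pmp2, which lies in a row of fatty acid-binding genes on chromosome 3, Fabp9, Fabp4 and Fabp12 differed by 0.12, 0.03 and 0.03 (Fabp4 by -0.03 from parental cells alone), and Fabp5 by 1.47 as above. The 6 around Pmp22 differed by -0.12 to 0.17 and those around Apod by -0.29 to 0.45. Clone A1 set some of these ends. Acap2 near Apod was at 9.53 in A1, 8.86 in parental cells and 8.81 to 8.96 in PECAM1+ clones. Xxylt1 near Apod was at 7.35 in A1, 7.87 in parental cells and 7.69 to 8.25 in PECAM1+ clones. Tvp23b near Pmp22 was at 8.49 in A1, 7.79 in parental cells and 7.98 to 8.06 in PECAM1+ clones. Bcan lies near Crabp2, which was also highest in A4, and near Nes, which was not. The genes around Scrg1 ranged over 0.11 to 0.52 in the PECAM1+ clones, against 3.41 for Scrg1.

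Genes with the pattern most like each member were named by Pearson's r over the 6 B16F10 arrays, among the 2331 other genes with a range of at least 2-fold there. These arrays are of 1 cell line and A1 stands apart, so r is a description. Pmp2 was nearest to Hsd17b7 (r = 0.99), Plscr2 (0.99) and Cxcl11 (0.98), with r from 0.97 to 0.99 without A1. Pmp22 was nearest to Zfp365 (r = 0.996), Ddit4 (0.99) and Adh7 (0.99), and Apod to Lif, Fam102a and Nebl (r = 0.97, 0.97 and 0.96). Fabp7 was nearest to Atp10b (r = 0.99), to Scrg1 (0.98) and to 2410022M11Rik (0.98), and Scrg1 to 2410022M11Rik (0.99), Fabp7 (0.98) and Atp10b (0.98). Bcan was nearest to Grik2 (0.99), Cda (0.99) and Plxnd1 (0.98), and Cda was at 10.58 in A4 and between 8.11 and 8.89 in the other PECAM1+ clones.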

How the data were processed

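The authors deposited 1 log2 value per probe set for each of 7 arrays; the submitters' processing notes name Partek, and how values were summarised and normalized is not given in the sources. The log2 scale was inferred from their span (1.39 to 13.5, array medians 6.12 to 6.18). The platform annotation named 1 gene for 21789 of 35557 probe sets, several for 1621 and none for 12147; of the first, 21698 matched RefSeq (GRCm38.p6) by Entrez identifier with 0 symbols changed. For 999 genes with several probe sets the one with the highest mean stood for the gene, leaving 19938.

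The group comparison used limma 3.58.1 (R 4.3.3, eBayes with trend) on the 6 B16F10 arrays, two-sided, adjusted by Benjamini-Hochberg over all genes at 0.05; the fit was tested on simulated data. No filter was applied. A summed marker level is the log2 of the sum of the linear values. Members and gene lists were chosen with earlier results of these data known, and neighbouring genes were added after the values were seen. Named list genes were those past the threshold, up to 4 with the largest group difference, 3 with the widest range over PECAM1+ clones and 3 with the largest MDEC difference. Genes most alike were the 3 of highest r, for members with a 2-fold range. Other genes, such as Tyr, Gpr143 and Lyz2, were named after their values were seen. Scaling, filter, probe set, moderation, array weights and leaving out each array were varied. A few genes of the lists are not reported here.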

Additional observations from a re-analysis of the deposited data

Results flagged for a closer look

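In 54 named genes with a spread, 4 had a PECAM1+ clone far from the other 3 relative to their range. Chance flags about 1 in 20 groups, but some of these genes were named for their range over the same clones, so the count is not read against that rate. Gfra1, a receptor of GDNF-family signals, was at 7.07 in clone A3 and between 6.34 and 6.41 in the others, and its relative Gfra3 was at 6.90 in A3 and between 5.91 and 6.04. Nrg1 was at 5.20 in A2, while the other 3 and parental cells shared the same value, 5.31, so any gap would be flagged. Tfap2a was at 10.12 in A4 and between 9.96 and 9.97 in the others. Both gaps were small.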

How the results depend on the processing

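The limma fit called 2 genes, and 7 with quantile normalization, 6 with median centring, 5 with a filter on dim genes, 5 with robust eBayes and 1 with array weights. Leaving out 1 array gave 1 to 4089 called genes, the highest without parental cells, where clone A1 is the only PECAM1- sample. Of the glial lists 0 to 28 genes were then called, and 28 again came without parental cells. The fit without parental cells rests on clone A1 alone for the PECAM1- group, so nothing about the glial lists is read from that count. Its parts in each direction are given above beside the background. The Mbp difference ran from 0.053 (without A1) to 0.72 (without parental cells). Of 79 differences of members under these alternatives, 77 moved by less than the SD within groups. The sign turned in 4, for Cnp without A1 or without A5 and for Fabp7 without parental cells or without A4. The 79 include the filter on dim genes and the use of all probe sets, which could not move a member's difference. Each member had 1 probe set, and the filter left the values of the remaining genes unchanged. Pmp2 stayed at or above 3.49, Pmp22 at or above 2.12, Apod at or above 2.05 and Bcan at or above 0.99. The filter on dim genes left out Scrg1. No paired analysis was possible because the labels give the groups no shared replicate numbers. The number of arrays limits the precision, and without detection calls the signal over background is not known.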

Other observations

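Aldoc, an aldolase of astrocytes and a marker outside the lists of myelin genes, was lower in all PECAM1+ clones. It was at 9.42 in parental cells, 11.18 in A1 and 8.27, 6.86, 8.96 and 8.64 in A2 to A5. Its difference of -2.12 ± 0.75 (SE) did not pass over all genes in limma and was -1.24 against parental cells alone, and clone A3, the highest for Pmp2, was the lowest for Aldoc.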
